A study of Mus musculus with 3 samples.

Results

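The 3 neuroligins Nlgn1, Nlgn2 and Nlgn3, the 4 leucine-rich repeat genes Lrrtm1, Lrrtm2, Lrrtm3 and Lrrtm4, the interleukin-1-receptor-like pair Il1rapl1 and Il1rapl2, and Lrrc4c were taken by name and are 10 of the 31053 genes counted in the series. The cells were neurons of the mouse neocortex (NCx) that had expressed Sst-Cre, and they were profiled with droplet single-cell RNA sequencing at embryonic day E16.5 and postnatal days P1 and P5. Each stage is 1 library, with no replicate library, made from the pooled cells of several animals. All mice were Sst-Cre; RCEloxP (Sst Cre/+ and RCE fl/+), with Cre made where Sst is used and a Cre-dependent GFP reporter at the Rosa26 locus. Sorting was on GFP, so a cell that used Sst only briefly was kept as well, and no group lacked these alleles or received a treatment. Within each library the cells with at least 1 UMI (a counted RNA molecule) of Nos1 are called Nos1+ cells here, and the cells with Lhx6 but without Nos1 are called Lhx6+ Nos1- cells. Nos1 makes nitric oxide and marks the long-range projecting (LRP) neurons among the Sst cells, while Lhx6 encodes a transcription factor of cortical interneurons born in the medial ganglionic eminence.

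These genes encode membrane proteins that stand mainly on the receiving side of the synapse and bind a partner on the incoming axon. Neuroligins and LRRTMs bind the presynaptic neurexins; neuroligin 1 is best known from excitatory synapses, neuroligin 2 from inhibitory synapses and neuroligin 3 from both, and LRRTMs are known from excitatory synapses. IL1RAPL1 binds the presynaptic phosphatase PTPδ, the product of Ptprd, and LRRC4C (NGL-1) binds netrin-G1, the product of Ntng1. In cortical interneurons such proteins act in the forming of the excitatory and inhibitory contacts that the cell receives.

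On the GRCm38 build (GENCODE M21 annotation), Nlgn1 is at chr3:25426215-26332460 on the minus strand, Nlgn2 at chr11:69823122-69837784 (minus) and Nlgn3 at chrX:101299168-101325963 (plus). Lrrtm1 is at chr6:77242689-77257791 (plus), Lrrtm3 at chr10:63928472-64090277 (minus) and Lrrtm4 at chr6:80018877-80810143 (plus). Il1rapl1 is at chrX:86740870-88115645 (minus), Il1rapl2 at chrX:137570608-138846946 (plus) and Lrrc4c at chr2:96318169-97631666 (plus). The genes differ widely in size: Nlgn1, Lrrtm4, Il1rapl1, Il1rapl2 and Lrrc4c span 791 to 1375 kb, and the other 5 span 6.02 to 162 kb. Lrrtm1, Lrrtm2 and Lrrtm3 each lie inside an alpha-catenin gene on the opposite strand (Ctnna2, Ctnna1 and Ctnna3). Antisense genes that were also counted overlap Nlgn1 (A830092H15Rik), Lrrtm4 (Gm4409), Il1rapl2 (Tex13a) and Lrrc4c (4930445B16Rik). Whether the counting used strand is not given in the sources used here, and whether reads of an antisense partner entered a gene's counts was not tested.

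Lrrtm1 and Lrrtm4 lie 2.76 Mb apart on chromosome 6 and had opposite differences between the populations at P5, so the 250 bases before their starts are shown (RefSeq, GRCm38.p6), from chr6:77242227-77242476 (plus) for Lrrtm1 and chr6:80018627-80018876 (plus) for the more upstream of the 2 listed starts of Lrrtm4. Capitals mark the TATA-box letters TATAAA where they were found, here on the reverse strand, and the windows read 5′ to 3′ as follows.
Lrrtm1: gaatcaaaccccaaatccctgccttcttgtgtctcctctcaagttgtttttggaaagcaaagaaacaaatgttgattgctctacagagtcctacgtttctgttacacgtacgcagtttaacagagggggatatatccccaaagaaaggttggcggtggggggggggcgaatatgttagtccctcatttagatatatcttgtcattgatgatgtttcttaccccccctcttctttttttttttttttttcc
Lrrtm4: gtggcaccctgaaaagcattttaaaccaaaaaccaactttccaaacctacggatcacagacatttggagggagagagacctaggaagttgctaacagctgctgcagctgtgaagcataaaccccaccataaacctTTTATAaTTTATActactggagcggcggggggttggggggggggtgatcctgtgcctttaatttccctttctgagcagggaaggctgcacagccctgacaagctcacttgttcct
The letters TATAAA, searched on both strands, were present at 2 places in this Lrrtm4 window and absent from the Lrrtm1 window, and 12.4% of 32851 such windows of the genome held them. In the Lrrtm4 window they lie near the middle, away from the start, and whether they act as a TATA box was not tested. The octamer ATGCAAAT (1.60% of windows), the homeodomain core TAATTA (4.84%) and the cAMP response element TGACGTCA (1.55%), also searched on both strands, were in neither of these windows. The Lrrtm1 window held 5 CpG and the Lrrtm4 window 3, against a median of 6. The window before the other listed start of Lrrtm4, chr6:80019393-80019642, held none of the 4 motifs and 8 CpG, so the contrast with Lrrtm1 is that of the upstream start.

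The libraries held 4478, 4440 and 3406 cells at E16.5, P1 and P5, of which 3952, 2501 and 2980 had more than 700 genes and under 10% mitochondrial UMIs, with medians of 5577, 3293 and 3936 UMIs per cell. Cell barcodes also present in another library numbered 4, 9 and 7. Nos1+ cells numbered 67, 434 and 547 (1.70%, 17.4% and 18.4% of the kept cells) and Lhx6+ Nos1- cells 3269, 1606 and 1874. Lhx6 was not required of Nos1+ cells, and 49, 360 and 392 of them had an Lhx6 UMI. Stage and library cannot be told apart. The P1 library also differed from the others in software version, and the P5 tissue in its digestion. Cells of P1 and P5, but not of E16.5, also went through a Percoll step that removed myelin. Likewise, fewer UMIs of a gene cannot be told apart from fewer cells of a type within a population. Nos1+ cells carried the known LRP markers Npy, at 12366, 24679 and 34619 CPM (UMIs of the gene in 1000000 UMIs of the population) against 1635, 1208 and 816 in Lhx6+ Nos1- cells, and Chodl, at 42.1, 284 and 399 CPM against 7.21, 12.1 and 7.13. At E16.5 the Nos1+ cells also carried other markers: 15 of the 67 (22.4%) held a UMI of an excitatory neuron marker (Neurod6, Neurod2 or Slc17a7), against 4.61% at P1 and 0.548% at P5 and between 0.320% and 1.25% of Lhx6+ Nos1- cells, and the summed level of 5 markers, these and Slc17a6 and Tbr1, was 581, 154 and 6.11 CPM against 8.05, 9.36 and 2.81 CPM, with Slc17a6 at 0 in both populations at P5. The 15 cells were also deeper, with a median of 11678 UMIs against 7306 in the other 52. Such marker-bearing cells, by those 3 genes, were left out in an alternative, whose values are given where they moved a result. The markers of microglia, astrocytes, oligodendrocytes and vessels summed to at most 18.5 CPM per list in either population, those of Meis2-type cells to 175, 85.8 and 19.9 CPM in Nos1+ cells against 47.1, 56.2 and 13.8, and the stress genes to 1257, 1073 and 794 CPM against 1083, 876 and 609, and their part in the results was not tested.

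Levels below are summed UMIs of a population as CPM, with exact 95% Poisson intervals, and shares of cells with a UMI have exact binomial (Clopper-Pearson) intervals; all intervals cover counting error only. Ratios are on the log2 scale with 1 CPM added to both levels, while their intervals are computed from the counts without it, so that for low levels the ratio can sit near or beyond an end of its interval. With 1 library per stage and cells that are not replicates, no test was made. A gene is called different past 2-fold, among genes with at least 5 UMIs expected in the smaller population. The levels are not corrected for gene length and are compared between populations and stages, not between genes.

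Nlgn1 went opposite ways in the 2 populations. In Nos1+ cells its level was 84.2 CPM (62.5 to 111) at E16.5, 29.4 (22.4 to 38.1) at P1 and 12.7 (8.24 to 18.8) at P5, and in Lhx6+ Nos1- cells it was 26.0 (23.8 to 28.2), 40.3 (36.0 to 45.0) and 41.6 (37.5 to 46.0) CPM. Nos1+ cells were thus the higher population at E16.5 and the lower at P5. At P1 they were lower by less than 2-fold. The intervals of the P1 levels overlapped, but the interval of the P1 ratio lay wholly on the lower side. A Nlgn1 UMI was found in 6.91% (4.71 to 9.72) of Nos1+ cells at P1, against 14.3% (12.6 to 16.1) of Lhx6+ Nos1- cells. Over the alternatives the P1 ratio ran from -2.66 to -0.35. The log2 ratio of Nos1+ over Lhx6+ Nos1- cells was 1.66 (1.25 to 2.12), -0.44 (-0.88 to -0.05) and -1.63 (-2.35 to -1.12) at the 3 stages. The E16.5 value rested on few cells: its 50 UMIs were in 14 cells, and 1 cell held 38.0% of them. With cells carrying an excitatory neuron marker left out, 10 UMIs remained in 52 Nos1+ cells, and the levels were 24.8 CPM in Nos1+ and 25.5 CPM in Lhx6+ Nos1- cells (log2 ratio -0.04, -1.11 to 0.85). In the 15 Nos1+ cells of E16.5 that also had a Chodl UMI the ratio was -1.34, a value from very few UMIs and given without an interval. Cells with such a marker and neither Nos1 nor Lhx6 had 90.8, 208 and 168 CPM of Nlgn1. Leaving them out at P1 gave 16.3 against 39.6 CPM (log2 ratio -1.23, -1.89 to -0.73), past 2-fold, and the P5 ratio without them was -1.73.

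Nlgn2 and Nlgn3, the members known from inhibitory synapses, differed in summed level between the populations by less than their counting intervals at each stage. Nlgn2 was at 82.5, 166 and 127 CPM in Nos1+ cells and 82.9, 178 and 125 CPM in Lhx6+ Nos1- cells, with log2 ratios of -0.01 (-0.45 to 0.40), -0.10 (-0.28 to 0.07) and 0.02 (-0.18 to 0.22). Nlgn3 was at 57.2, 141 and 162 CPM against 66.5, 155 and 156, with ratios of -0.21 (-0.75 to 0.27), -0.14 (-0.33 to 0.05) and 0.06 (-0.12 to 0.24). At P5 the intervals thus left room for differences of at most 1.17-fold or 1.18-fold either way. A UMI was found in many cells for both genes: 33.6% (29.7 to 37.8) and 40.2% (36.1 to 44.5) of Nos1+ cells at P5 had a UMI of Nlgn2 and Nlgn3, against 43.7% and 50.1% of Lhx6+ Nos1- cells, which had more UMIs per cell (median 4752 against 3073). At a common depth of 2000 UMIs per cell the P5 shares were 23.4% and 28.7% against 21.6% and 28.0%. The P1 shares at that depth were lower in Nos1+ cells. They were 21.6% (17.5 to 26.3) against 28.9% (26.5 to 31.4) for Nlgn2, with intervals apart. For Nlgn3 they were 20.2% (16.2 to 24.8) against 26.8% (24.4 to 29.2), with intervals that overlapped. At E16.5, with 65 Nos1+ cells, the shares were 10.8% and 10.8% against 15.6% and 12.4%.

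**Figure D1:**
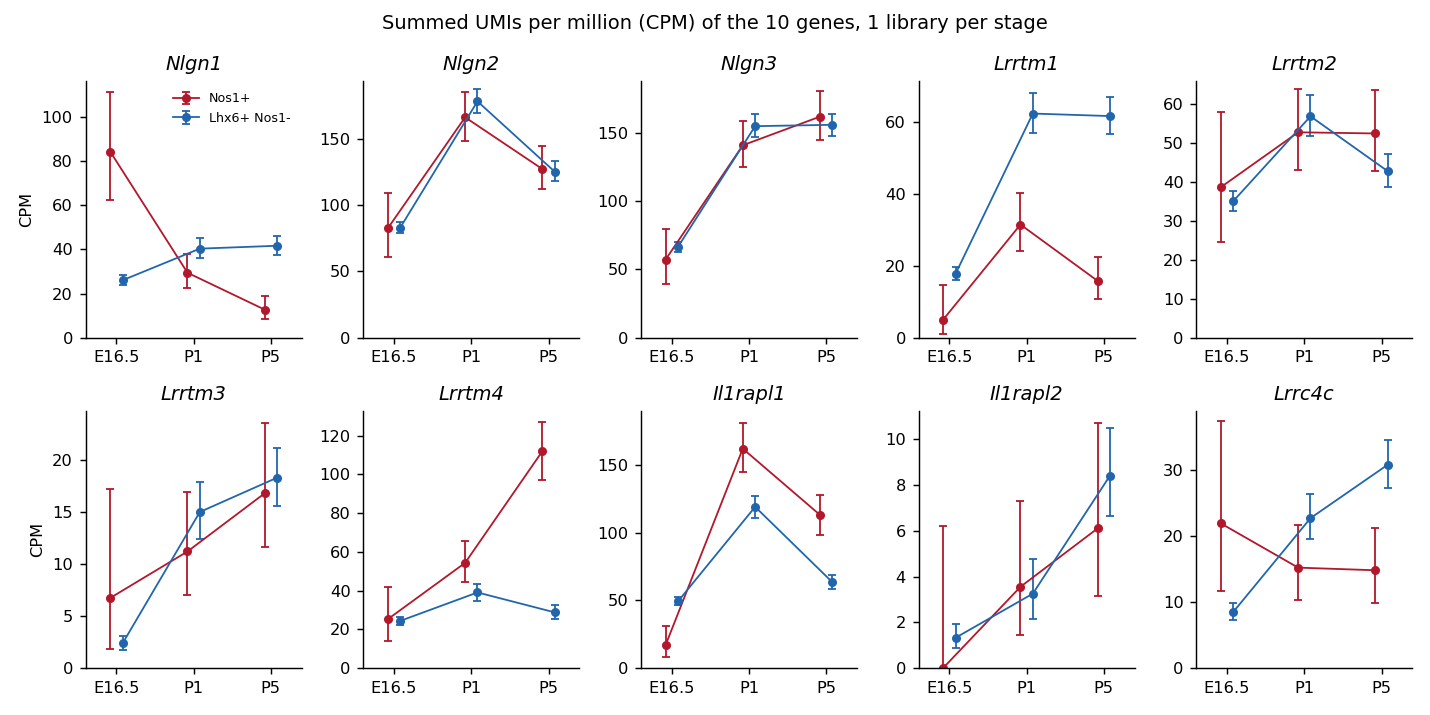
Summed UMIs as CPM ( linear vertical axes from 0) of each of the 10 genes in Nos1+ and in Lhx6+ Nos1- cells at E16.5, P1 and P5, with exact 95% Poisson intervals as error bars. Nlgn2 and Nlgn3 run together in both populations, while Nlgn1, Lrrtm1, Lrrtm4, Il1rapl1 and Lrrc4c stand apart at P5.

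Lrrtm1 was lower in Nos1+ cells in all 3 libraries. It had 3 UMIs at E16.5 (5.05 CPM, 1.04 to 14.8), then 31.5 CPM (24.1 to 40.4) at P1 and 15.8 (10.7 to 22.4) at P5, whereas Lhx6+ Nos1- cells had 17.8 (16.1 to 19.7), 62.4 (57.1 to 68.1) and 61.7 (56.7 to 66.9) CPM. The intervals of the 2 populations did not overlap at any stage. The log2 ratios were -1.64 (-4.10 to -0.26), -0.97 (-1.39 to -0.60) and -1.90 (-2.54 to -1.44), the P1 value being just inside 2-fold; without cells with an excitatory neuron marker it was -1.19, and no Lrrtm1 UMI remained in the 52 Nos1+ cells of E16.5. At P5 a UMI was found in 4.94% (3.28 to 7.10) of Nos1+ cells and in 22.5% (20.6 to 24.5) of Lhx6+ Nos1- cells, and at 2000 UMIs per cell in 2.66% and 10.1%.

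Lrrtm4, whose product also binds heparan sulfate proteoglycans, showed the opposite pattern at P5. Nos1+ cells had 25.2 CPM (14.1 to 41.6) at E16.5, 54.3 (44.5 to 65.6) at P1 and 112 (97.3 to 127) at P5, while Lhx6+ Nos1- cells had 24.3 (22.3 to 26.5), 39.0 (34.8 to 43.5) and 28.7 (25.4 to 32.4). The intervals of the populations overlapped at E16.5 and did not at P1 and P5. The log2 ratios were 0.05 (-0.79 to 0.79), 0.47 (0.15 to 0.80) and 1.92 (1.69 to 2.22). Over the alternatives the P1 ratio ran from -0.00 to 0.74. With over 1000 genes and under 5% mitochondrial UMIs required, 222 Nos1+ and 357 Lhx6+ Nos1- cells remained at P1. A UMI was found in 16.2% and 16.8% of them. The 219 UMIs at P5 were spread over 162 cells, 29.6% (25.8 to 33.6) of the population, with at most 4 in a cell, against 11.9% (10.5 to 13.5) of Lhx6+ Nos1- cells. At 2000 UMIs per cell these shares were 18.1% and 6.46%.

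Lrrtm2 and Lrrtm3 differed little in summed level between the populations at P1 and P5. Lrrtm2 was at 38.7, 52.8 and 52.5 CPM in Nos1+ cells and 35.1, 56.9 and 42.8 CPM in Lhx6+ Nos1- cells, and all 3 intervals of the log2 ratio (0.14, -0.11 and 0.29) included 0. Lrrtm3 was at 6.73 CPM from 4 UMIs, 11.2 and 16.8 CPM against 2.36, 15.0 and 18.3 CPM, with ratios of -0.39 (-1.15 to 0.24) at P1 and -0.11 (-0.70 to 0.43) at P5, and too few UMIs for a call at E16.5, where 1 UMI (2.48 CPM) was left without marker-bearing cells. Both share their locus with a catenin gene whose level was low: Ctnna1 was at 7.11 to 10.1 CPM in Nos1+ and 4.21 to 7.37 CPM in Lhx6+ Nos1- cells, and Ctnna3 had no UMI in Nos1+ cells and 1, 3 and 5 in Lhx6+ Nos1- cells. Ctnna2, around Lrrtm1, was at 103, 139 and 153 CPM in Nos1+ cells and 127, 127 and 107 CPM in Lhx6+ Nos1- cells (log2 ratio 0.51, 0.32 to 0.70, at P5), the opposite direction to Lrrtm1 at P5. Where they had enough UMIs for a call, none of the 3 catenin genes was past 2-fold in the comparisons of populations or stages.

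Il1rapl1 was the member with the greatest change of level over time in Nos1+ cells. Its level there was 16.8 CPM (8.07 to 31.0; 10 UMIs) at E16.5, 162 (145 to 181) at P1 and 113 (98.2 to 128) at P5, and in Lhx6+ Nos1- cells 49.1 (46.2 to 52.2), 119 (111 to 127) and 63.3 (58.3 to 68.6). Both populations were highest at P1, and the order of the populations turned between E16.5 and P1. The log2 ratios were -1.49 (-2.61 to -0.66), 0.44 (0.26 to 0.63) and 0.82 (0.60 to 1.06), and -1.11 at E16.5 without cells with an excitatory neuron marker. A UMI was found in 13.4%, 43.5% and 30.3% of Nos1+ cells and in 24.1%, 35.5% and 23.8% of Lhx6+ Nos1- cells. Il1rapl2, its paralog, was near the limit of detection, with 0 of 67 Nos1+ cells at E16.5, which by a limit of 3 counts allows a share of cells with a UMI of up to 4.48% (5.36% by the exact interval), and 3.55 and 6.11 CPM at P1 and P5. Lhx6+ Nos1- cells had 1.32 (0.876 to 1.91), 3.25 (2.12 to 4.76) and 8.42 (6.66 to 10.5) CPM of Il1rapl2, and the intervals of the ratios at P1 and P5 included 0.

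Lrrc4c followed Nlgn1 in direction, at a lower count. It was at 21.9 (11.7 to 37.4), 15.2 (10.3 to 21.7) and 14.8 (9.89 to 21.2) CPM in Nos1+ cells and 8.48 (7.28 to 9.81), 22.7 (19.5 to 26.3) and 30.8 (27.3 to 34.6) CPM in Lhx6+ Nos1- cells. The intervals of the levels overlapped at P1 only, with Nos1+ cells higher at E16.5 and lower at P5. The log2 ratios were 1.27 (0.43 to 2.18), -0.55 (-1.19 to -0.01) and -1.01 (-1.66 to -0.51). The interval of the P1 ratio thus also lay on the lower side. Cells with an excitatory neuron marker and neither Nos1 nor Lhx6 had 43.8, 271 and 92.5 CPM, and without marker-bearing cells the E16.5 ratio was 0.95 (-0.30 to 2.11), the P1 ratio -0.86 and the P5 ratio -1.04. In the 15 Nos1+ cells of E16.5 with a Chodl UMI it was -3.24. That is the value the added 1 CPM gives when no Lrrc4c UMI is found, and these cells are too few for a direction. The summed level of all 10 members did not show these differences, at 338, 667 and 633 CPM in Nos1+ cells and 314, 692 and 577 CPM in Lhx6+ Nos1- cells.

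**Figure D2:**
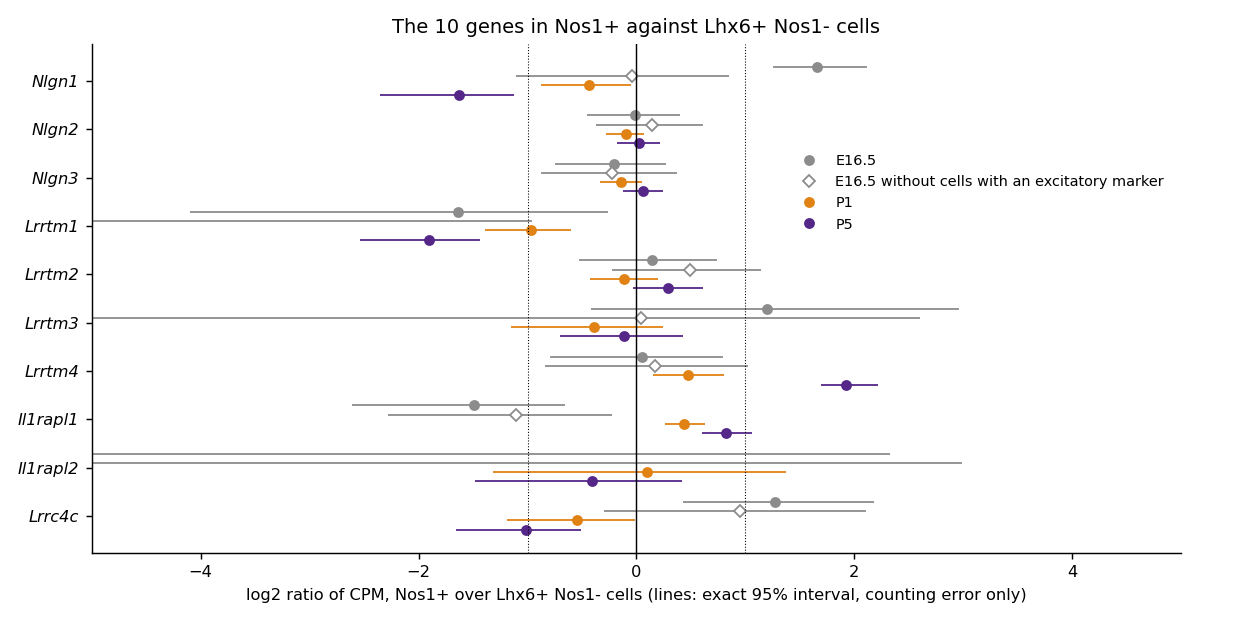
Log2 ratio (horizontal axis) of Nos1+ over Lhx6+ Nos1- cells for each of the 10 genes at E16.5, P1 and P5 (filled points) and at E16.5 without cells with an excitatory marker (open diamonds), with 1 CPM added to both levels, intervals from the counts drawn as lines that end at 5 and -5, and dotted lines at 2-fold; a line without a point is a gene with no UMI in Nos1+ cells. At P5 Lrrtm4 lies beyond 2-fold on the higher side and Nlgn1, Lrrtm1 and Lrrc4c beyond it on the lower side.

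At E16.5, 2 of the 8 members with enough UMIs were at least 2-fold higher in Nos1+ cells (Nlgn1 and Lrrc4c) and 2 at least 2-fold lower (Lrrtm1 and Il1rapl1), beside 2.58% and 3.93% of the 9092 genes of all kinds that were compared. With cells bearing an excitatory neuron marker left out, 0 of 7 were higher and 2 lower (Lrrtm1, with no UMI in Nos1+ cells, and Il1rapl1), beside 2.32% and 4.56% of all genes. At P1 none of the 10 was past 2-fold in either direction, beside 3.42% higher and 2.92% lower of 11594 genes, but 4 were lower (Nlgn1, Lrrtm1, Lrrtm3 and Lrrc4c) when Nos1+ cells needed at least 2 Nos1 UMIs (beside 5.82% of all genes), and 2 (Nlgn1 and Lrrtm1) when marker-bearing cells were left out (beside 3.90%). At P5, 1 of 10 was higher (Lrrtm4) and 3 were lower (Nlgn1, Lrrtm1 and Lrrc4c), beside 3.40% and 6.01% of 11704 genes. The median log2 ratio over the members was 0.02, -0.12 and -0.04 at the 3 stages (0.10 at E16.5 with the undetected Il1rapl2 set at 3 UMIs), and -0.04, -0.03 and -0.07 over all genes compared.

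Between E16.5 and P1 more members were past 2-fold on the higher side than on the lower in both populations. In Nos1+ cells 4 of 9 members were at least 2-fold higher, Nlgn3 (log2 ratio 1.29), Lrrtm1 (2.42, 1.03 to 4.96), Lrrtm4 (1.08) and Il1rapl1 (3.19, 2.37 to 4.34), and 1 lower, Nlgn1 (-1.48), beside 13.7% and 4.97% of all genes compared. Nlgn2 was just inside the limit in these cells, at 1.99-fold (1.00, 0.57 to 1.47). In Lhx6+ Nos1- cells 6 of 10 were higher, Nlgn2 (1.09), Nlgn3 (1.21), Lrrtm1 (1.75), Lrrtm3 (2.25), Il1rapl1 (1.26) and Lrrc4c (1.32), and 0 lower, beside 10.8% and 3.50%. The members' median was 1.04 in Nos1+ and 1.15 in Lhx6+ Nos1- cells, while that of all genes was 0.16 in both; in Nos1+ cells it was 1.00 over the 9 members with enough UMIs, and 0.83 with the undetected Il1rapl2 set at 3 UMIs. With marker-bearing cells left out, the Nlgn1 ratio in Nos1+ cells was -0.58, inside 2-fold, and that of Il1rapl1 was 2.90.

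From P1 to P5 the levels changed less. In Nos1+ cells Lrrtm4 was higher (1.02, 0.70 to 1.39) and Nlgn1 lower (-1.15), 1 of 10 in each direction beside 7.51% and 12.7% of all genes, and the Nlgn1 ratio was -0.44 with marker-bearing cells left out. It was 0.41 in Nos1+ cells that also had Chodl and 0.71 in cells with over 1000 genes and under 5% mitochondrial UMIs, so its direction turned with these choices. In Lhx6+ Nos1- cells 1 was higher, Il1rapl2 (1.15), and 0 lower, beside 8.93% and 9.99%, with Il1rapl1 at -0.90 (-1.06 to -0.76). Across the whole span from E16.5 to P5, 5 of 9 members were higher and 1 lower in Nos1+ cells (16.5% and 14.1% of all genes). The higher were Il1rapl1 (2.67), Lrrtm4 (2.10), Nlgn3 (1.49), Lrrtm1 (1.47, 3 UMIs at E16.5) and Lrrtm3 (1.20, 4 UMIs at E16.5), and the intervals of Lrrtm1 and Lrrtm3 included 0, with lower ends of -0.04 and -0.17. Nlgn1 was the lower (-2.63; -1.01, -2.20 to 0.16, without marker-bearing cells). In Lhx6+ Nos1- cells 5 of 10 were higher and 0 lower (18.5% and 12.6%), led by Lrrtm3 (2.52) and Il1rapl2 (2.02). Lrrtm4 was higher at P5 than at E16.5 by 2.10 in Nos1+ cells and 0.23 (0.02 to 0.46) in Lhx6+ Nos1- cells. These comparisons share libraries, so their values for a gene are not independent of each other.

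Few members were seen together in a cell at these depths. Thinned to 2000 UMIs, Nos1+ cells held 0.554, 0.989 and 1.13 of the 10 genes on average and Lhx6+ Nos1- cells 0.582, 1.18 and 1.07, and 55.4%, 30.9% and 26.6% of Nos1+ cells held none, against 53.7%, 29.1% and 31.2%. No cell type in this sort is known to lack these genes, so no share from free RNA could be set beside these values.

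In the P1 and P5 libraries Nlgn1 was lowest in the Nos1+ cells with the most Nos1. The E16.5 library did not show this order. There Nlgn1 was at 63.4 CPM in the 8 cells with at least 5 Nos1 UMIs and 71.1 CPM in the 38 cells with 1 (log2 ratio -0.16, -1.63 to 1.10). At P1 it was at 60.7 CPM in the 126 cells with 1 Nos1 UMI, 54.0 in the 80 cells with 2 to 4 and 3.81 (4 UMIs) in the 228 cells with at least 5. At P5 it was at 44.7, 10.5 and 6.17 CPM in 81, 82 and 384 cells. Cells with 1 Nos1 UMI were thus at or above the 40.3 and 41.6 CPM of Lhx6+ Nos1- cells, and they also had less of the LRP markers: Npy was at 5925, 22720 and 36687 CPM over the 3 classes at P1 and at 8445, 33269 and 40417 CPM at P5. The log2 ratio of the highest over the lowest class was -3.68 (-5.94 to -2.52) at P1 and -2.67 (-4.25 to -1.55) at P5 for Nlgn1. Without marker-bearing cells these ratios were -3.46 (-6.24 to -2.12; 42.2 CPM in the lowest class) and -2.48 (-4.08 to -1.29; 38.9 CPM). Over the classes in that order the median UMIs per cell were 3845, 2418 and 4218 at P1 and 3390, 1878 and 3223 at P5. Thinned to 2000 UMIs per cell, the Nlgn1 ratio was -3.63 (-9.57 to -1.20) at P1, from 1 and 8 UMIs, and -1.61 (-4.09 to 0.96) at P5, from 5 and 3 UMIs.

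Lrrtm1, Lrrtm3 and Lrrc4c showed the same order of the outer classes at P1 and P5. At E16.5 the highest and lowest classes had 2 and 1 UMIs of Lrrtm1, 2 and 0 of Lrrtm3, and 4 and 7 of Lrrc4c, too few for a direction. Lrrtm1 was at 57.6, 36.0 and 14.3 CPM at P1 and 35.1, 15.7 and 11.7 CPM at P5. Lrrc4c was at 35.8, 3.60 and 5.72 CPM and at 41.5, 31.4 and 6.85 CPM. Lrrtm3, which differed little in summed level between the whole populations at P1 and P5, was at 21.8, 14.4 and 3.81 CPM and at 41.5, 36.6 and 8.91 CPM, a log2 ratio of the outer classes of -2.24 at P1 and -2.10 at P5. Lrrtm4 went the other way at P5, with 54.3, 89.0 and 127 CPM (1.21, 0.51 to 2.04), and stood at 43.6, 61.2 and 59.1 CPM at P1. The ratios of the outer classes for Lrrtm1, Lrrtm3, Lrrc4c and Lrrtm4 stayed within their intervals without marker-bearing cells. Thinned, Lrrtm4 was at 2.21 (0.66 to 4.56) at P5 and -0.16 (-1.28 to 1.03) at P1. Thinned Lrrtm1 was at -1.70 (-3.74 to 0.02) at P1 and -1.17 (-3.37 to 1.34) at P5. Lrrtm3 then had 0 against 2 UMIs at P1 and -1.89 (-3.85 to 0.02) at P5. Lrrc4c was at -2.27 (-8.40 to 0.95) and -2.29 (-4.89 to -0.04). Of the thinned values for Lrrtm1, Lrrtm3 and Lrrc4c, only that of Lrrc4c at P5 had an interval without 0. Il1rapl1 was at 73.4, 73.3 and 126 CPM at P5 (0.77), and Nlgn3 was at 166, 147 and 164 CPM.

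**Figure D3:**
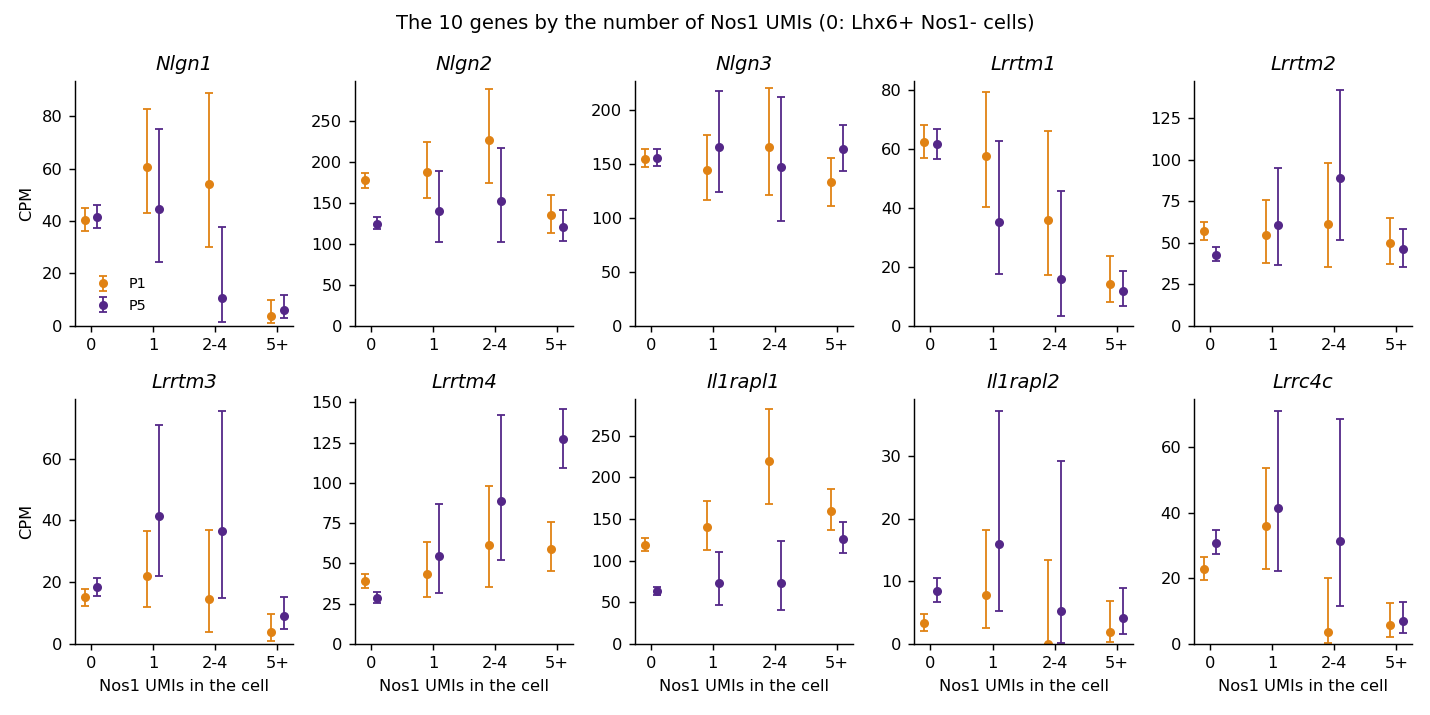
CPM (vertical axes) of each of the 10 genes at P1 and P5 in Lhx6+ Nos1- cells (drawn at 0 Nos1 UMIs) and in Nos1+ cells with 1, 2 to 4 or at least 5 Nos1 UMIs, with exact 95% Poisson intervals. Nlgn1, Lrrtm1, Lrrtm3 and Lrrc4c are lower in the class with at least 5 Nos1 UMIs than in the class with 1, and Lrrtm4 at P5 is higher.

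Within the Nos1+ cells, those with Lypd1 but not Dach1 were set beside those with Dach1 but not Lypd1, a pair of marker genes that the study used to divide LRP neurons. Lrrtm4 was at 115 CPM in the 55 Lypd1 cells of P1 and at 16.4 CPM in the 98 Dach1 cells (log2 ratio 2.73, 1.62 to 4.22), and at 157 against 81.4 CPM at P5 (0.93, -0.08 to 2.18; 221 and 27 cells), where the interval included 0. Il1rapl1 was at 251 against 136 CPM at P1 (0.88, 0.38 to 1.40) and at 125 against 122 CPM at P5 (0.03, -0.83 to 1.03). Lrrtm3 was lower in the Lypd1 cells of P5, at 8.24 against 71.3 CPM at P5 (-2.97, -4.85 to -1.37; 7 UMIs each), and had 0 against 2 UMIs at P1, too few for a direction. At E16.5 only 1 cell had Lypd1 without Dach1, and no ratio is given.

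Within the Lhx6+ Nos1- cells, Tac1 without Nr2f2 leaned to non-Martinotti cells and Nr2f2 without Tac1 to Martinotti cells, the interneurons whose axons reach layer I, by the markers that the study lists for these types. Il1rapl1 was higher in the Tac1 cells in every library, at 102 against 31.1 CPM at E16.5 (log2 ratio 1.68, 1.35 to 2.07), 278 against 64.5 at P1 (2.09, 1.73 to 2.48) and 134 against 17.1 at P5 (2.90, 2.42 to 3.55). These values come from 155, 71 and 116 Tac1 cells and 845, 242 and 408 Nr2f2 cells. Lrrtm2, even across the main populations, was at 47.9 against 31.4, 91.9 against 48.1 and 107 against 26.6 CPM (1.97, 1.49 to 2.53, at P5). Lrrtm4 was at 27.5 against 25.3 CPM at E16.5, 60.5 against 24.3 at P1 (1.28) and 57.9 against 24.3 at P5 (1.22). Il1rapl2 had the opposite direction to its paralog at P5, with 6.81 against 25.5 CPM (-1.76, -3.82 to -0.48). Lrrc4c, which the study lists for non-Martinotti cells among genes that differed within this series, was at 15.3 against 8.96, 41.1 against 26.3 and 28.9 against 24.7 CPM, and all 3 intervals included 0.

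Further marker splits of the P5 Lhx6+ Nos1- cells, were chosen after values had been seen. In the 334 cells with Pdyn, the gene of prodynorphin, Lrrtm4 was at 6.43 CPM against 35.0 CPM in the 1540 without (-2.27, -3.37 to -1.64) and Lrrc4c at 4.95 against 38.0 (-2.71, -4.02 to -2.04), while Nlgn1 was at 55.9 against 37.6 (0.56). Il1rapl2 was also lower with Pdyn, at 2.47 against 10.1 CPM (-1.67, -3.69 to -0.74), as was Lrrtm3, at 6.43 against 21.6 (-1.60). In the 1046 cells with Reln, Il1rapl1 was at 36.5 CPM against 114 CPM (-1.61), Lrrtm4 at 15.7 against 53.0 (-1.69) and Lrrtm2 at 30.3 against 66.1 (-1.10), with Il1rapl2 at 10.6 against 4.34 (1.12). In the 725 cells with Erbb4, the neuregulin receptor gene, Il1rapl1 was at 102 CPM against 38.2 (1.39), Lrrtm4 at 41.3 against 20.5 (0.97), Lrrc4c at 46.2 against 20.7 (1.12) and Il1rapl2 at 3.83 against 11.4 (-1.37). Il1rapl1 and Lrrtm4 were thus higher at P5 in the cells with Tac1 or Erbb4 and lower in the cells with Pdyn or Reln, Il1rapl1 being at 34.1 against 71.4 CPM for Pdyn.

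**Figure D4:**
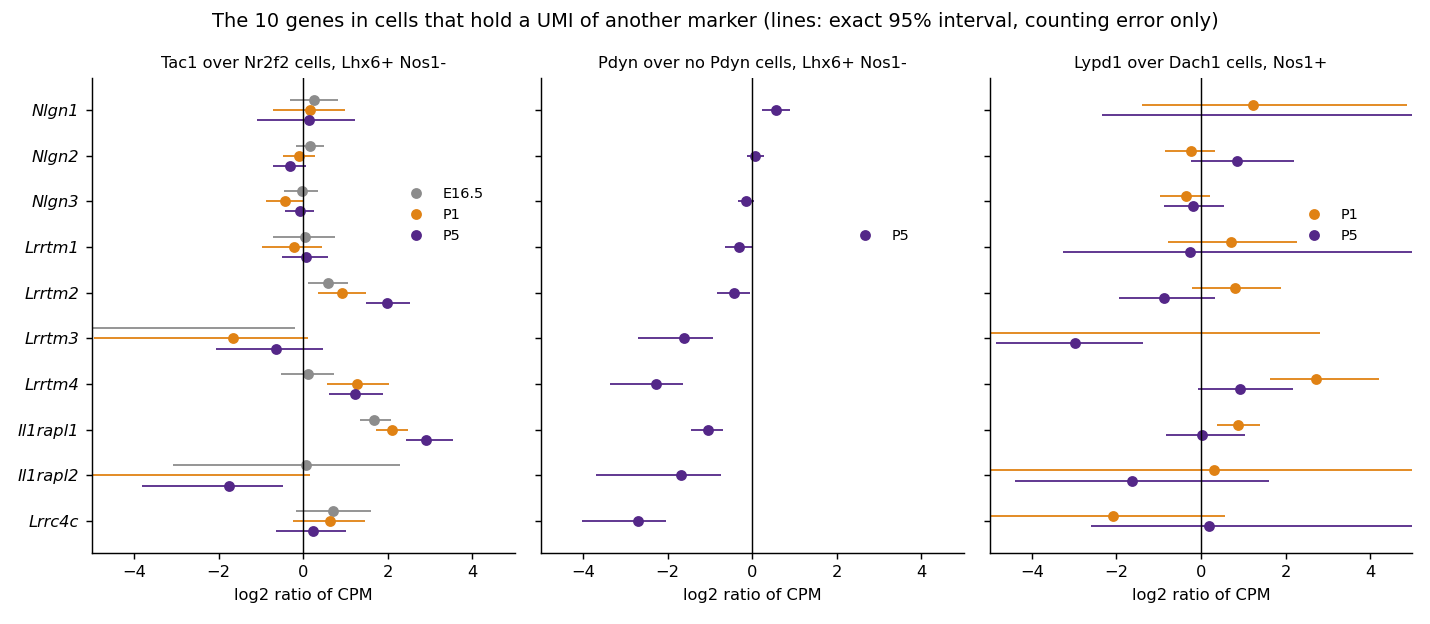
Log2 ratio of CPM (horizontal axes) for each of the 10 genes between cells split by marker genes, Tac1 over Nr2f2 cells at 3 stages and Pdyn over no Pdyn cells at P5 within Lhx6+ Nos1- cells, and Lypd1 over Dach1 cells at P1 and P5 within Nos1+ cells, with exact 95% intervals as lines that end at 5 and -5; a line without a point is a gene with no UMI on 1 side. Il1rapl1 is higher in the Tac1 cells of every library, and Lrrtm4 and Lrrc4c are lower in the Pdyn cells.

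Genes of the partner and scaffold proteins were examined as lists, 43 genes in all, with calls read beside the same shares of all genes as for the members. Of the 9 presynaptic partners, 7 had enough UMIs in each comparison of populations. Ntng1, the partner of Lrrc4c, was higher in Nos1+ cells in every library, at 82.5, 75.7 and 51.4 CPM against 24.4, 13.6 and 20.8 (log2 ratios 1.72, 2.39 and 1.26; 2.27 at E16.5 without marker-bearing cells). Its receptor gene Lrrc4c was higher in the same cells at E16.5 (1.27, and 0.95 without marker-bearing cells), inside 2-fold at P1 (-0.55) and lower at P5 (-1.01). Ptprd, the partner of Il1rapl1, was at 574, 616 and 479 CPM against 453, 475 and 219, and its ratio of 0.34, 0.37 and 1.13 was past 2-fold at P5. Among the neurexins, Nrxn2 was at 463, 740 and 1020 CPM against 505, 857 and 1046 (-0.13, -0.21 and -0.04), and Nrxn3 was lower in Nos1+ cells, at 522, 995 and 621 CPM against 1092, 1589 and 963 (-1.06, -0.67 and -0.63), with -0.58 at E16.5 without marker-bearing cells. In all, of 7 partners 1 was higher and 1 lower at E16.5, beside 2.58% and 3.93% of all genes. At P1 the counts were 1 and 0, beside 3.42% and 2.92%, and at P5 2 and 0, beside 3.40% and 6.01%.

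The products of the 2 MDGA genes bind neuroligins and block neurexin. In Nos1+ cells Mdga2 was past 2-fold on the higher side at E16.5 only, and Mdga1 had enough UMIs for a call at P5 only. Mdga2 was at 97.6, 167 and 132 CPM against 38.6, 112 and 84.0 (1.32, 0.58 and 0.64), with 1.77 at E16.5 without marker-bearing cells. Mdga1 had 7, 9 and 34 UMIs (11.8, 4.57 and 17.3 CPM) against 0.518, 0.624 and 0.972 CPM, with a log2 ratio of 3.22 at P5 (3.07 to 5.40) and no UMI left at E16.5 without marker-bearing cells. For the inhibitors, 1 of 1 with enough UMIs was past 2-fold in the E16.5 library, 0 of 1 in the P1 library and 1 of 2 in the P5 library. These were on the higher side, beside 2.58%, 3.42% and 3.40% of all genes. Of the 10 scaffold genes, 1 was higher at E16.5 (Dlg1, 1.02, and 0.61 without marker-bearing cells), beside 2.58% of all genes. At P1 0 passed, beside 3.42% higher and 2.92% lower, and at P5 1 was lower (Magi2, at 76.4 against 162 CPM), beside 6.01%. Dlg4, the gene of PSD-95, was at 127 against 162 CPM and Gphn, the gene of gephyrin, at 56.0 against 70.6 CPM at P5.

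Of the 19 other adhesion genes, 2 of 16 were higher at E16.5 (Flrt1 and Flrt3, at 0.47 and 1.43 without marker-bearing cells) and 0 lower, beside 2.58% and 3.93% of all genes. At P1 1 of 19 was higher (Flrt3) and 1 lower (Lrfn2), beside 3.42% and 2.92%. At P5 1 of 19 was higher (Flrt3) and 5 lower (Slitrk2, Slitrk4, Lrfn2, Flrt2 and Il1rap), beside 3.40% and 6.01%. Flrt3, whose product binds latrophilins and Unc5 receptors, was at 72.4, 79.7 and 66.2 CPM in Nos1+ cells and 20.8, 21.0 and 30.3 CPM in Lhx6+ Nos1- cells (1.75, 1.88 and 1.10). Lrfn2 (SALM1) was at 8.42, 9.65 and 2.55 CPM against 8.43, 20.6 and 12.9 (-0.00, -1.02 and -1.97). From E16.5 to P5, the genes past 2-fold the same way in both populations were Clstn1 (log2 ratio 1.67 in Nos1+ and 1.93 in Lhx6+ Nos1- cells), Dlg2 (1.66 and 1.95), Clstn3 (1.27 and 1.51), Lrfn1 (1.20 and 1.51), Ptprs (1.10 and 1.28) and Nrxn2 (1.14 and 1.05), which were higher at P5, and Lrrc4 (-1.83 and -1.30), the paralog of Lrrc4c, which was lower. Ptprd was lower at P5 in Lhx6+ Nos1- cells (-1.04) and stood at -0.26 in Nos1+ cells. Over that span 16.5% of all genes were higher and 14.1% lower in Nos1+ cells, and 18.5% and 12.6% in Lhx6+ Nos1- cells. Beside these shares, the 7 partners had 2 higher and 0 lower in Nos1+ and 2 higher and 1 lower in Lhx6+ Nos1- cells. The 2 inhibitors had 0 and 1 higher and the 10 scaffolds 2 and 2 higher, with 0 lower. The other adhesion genes had 3 higher and 1 lower of 16, and 8 higher and 1 lower of 19.

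**Figure D5:**
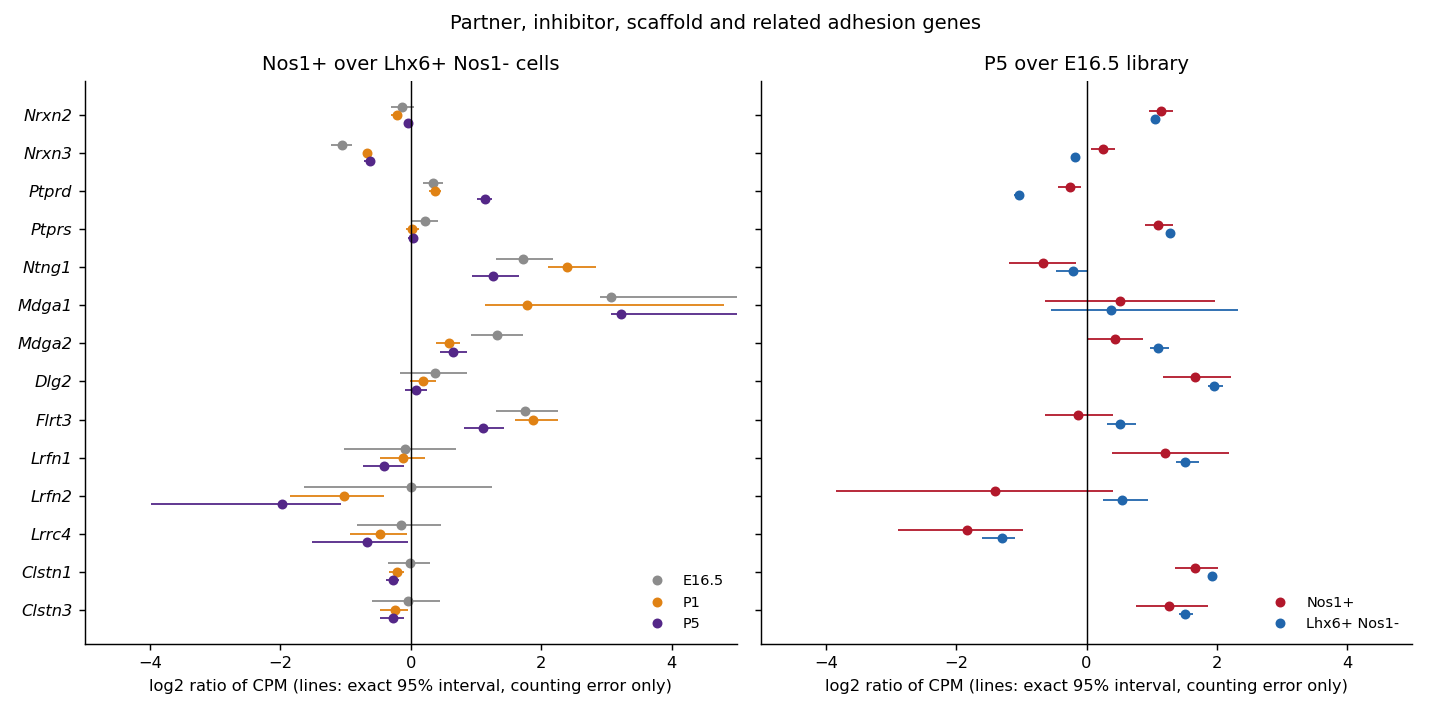
Log2 ratio of CPM (horizontal axes) of 14 partner, inhibitor, scaffold and related genes, at left Nos1+ over Lhx6+ Nos1- cells in the 3 libraries and at right the P5 over the E16.5 library in each population, with 1 CPM added to both levels and exact 95% intervals from the counts as lines that end at 5. Ntng1 and Flrt3 lie above a log2 ratio of 1 in the 3 libraries, and Lrfn2 lies below -1 at P1 and P5.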

How the data were processed

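Gene by cell tables were deposited as raw UMI counts, which the authors made with Cell Ranger (3.1.0 for E16.5 and P5, 3.0.2 for P1) on GRCm38, per the submitters' processing notes; a UMI counts an RNA molecule once, from its 3′ end. Tissue of 6 embryos (E16.5), 3 pups (P1) and 3 pups (P5) was pooled, P5 tissue was digested with further enzymes, and P1 and P5 cells were cleared of myelin with Percoll, per the study's methods. The members and gene lists were chosen with earlier results of these data known. Cells with more than 700 genes and under 10% mt- UMIs were kept (9433 of 12324); the study's later removal of clusters was not repeated and no doublet caller was run. UMIs were summed per population and scaled to CPM; 15 alternatives covered gates, filters, thinning to 2000 UMIs, scaling and the pseudocount. All members are named, with fixed companions (1 of them is not reported here) and companions past 2-fold alike at P1 and P5 or in both populations from E16.5 to P5. Splits by Pdyn, Reln and Erbb4 were added after values were seen. Promoter windows matched 8 members by symbol. Scripts (Python 3.11.15, numpy 2.4.6, scipy 1.17.1, pandas 2.3.3, matplotlib 3.10.9) were tested on simulated data.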

Additional observations from a re-analysis of the deposited data

Results flagged for a closer look

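Some values changed direction between libraries or between populations. The differences between them were not tested, since each stage is 1 library. For Nlgn1 the log2 ratio of Nos1+ over Lhx6+ Nos1- cells was 1.66, -0.44 and -1.63 in the order E16.5, P1 and P5. The P1 over E16.5 ratio of Nlgn1 was -1.48 in Nos1+ and 0.62 in Lhx6+ Nos1- cells, and its P5 over E16.5 ratio was -2.63 and 0.66. Without cells bearing an excitatory neuron marker the E16.5 population ratio of Nlgn1 was -0.04. For Lrrc4c the population ratio was 1.27, -0.55 and -1.01 at the 3 stages, and for Il1rapl1 it was -1.49, 0.44 and 0.82. The P5 over P1 ratio of Lrrtm4 was 1.02 in Nos1+ and -0.43 in Lhx6+ Nos1- cells.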

How the results depend on the processing

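No paired analysis was possible because each stage is 1 library, and for the same reason no replicate could be left out. Over the alternatives the members' median moved by less than its counting interval in 95 values and by more in 3, and single members stayed within theirs in 864 values, moved beyond them in 107 and, of values past 2-fold, turned direction in 6; of the 616 values inside 2-fold, 41 changed sign. The median at E16.5 was -1.29 with Nos1+ cells that also had Chodl (15 cells). The P1 over E16.5 median in Lhx6+ Nos1- cells was 0.99 with median of ratios scaling and 0.92 with a pseudocount of 10 CPM, with 5 members past 2-fold in place of 6. Nlgn1 at E16.5 had a population ratio of -1.34 with the Chodl gate and -0.04 without cells bearing an excitatory marker. Lrrc4c was at -3.24 with the Chodl gate, with no UMI in those Nos1+ cells. Both of these Chodl values rest on 15 cells with very few UMIs and have no interval. Nlgn1 from P1 to P5 in Nos1+ cells was 0.41 with the Chodl gate and 0.71 with over 1000 genes and under 5% mt- UMIs. Lrrtm3 at E16.5 was -1.70 when thinned, with no UMI left in Nos1+ cells. In alternatives chosen after seeing the data, the ratio of Il1rapl2 between the outer Nos1 classes at P1 was 0.01 without marker-bearing cells in place of -1.59 (2 and 5 UMIs). The cause was not tested. Among all genes, without the filter on low counts, 1375 in place of 235 were higher and 1179 in place of 357 lower at E16.5, 815 in place of 396 and 517 in place of 338 at P1, and 787 in place of 398 higher at P5. From E16.5 to P1 in Nos1+ cells 3048 in place of 1310 were higher and 1322 in place of 477 lower, from P1 to P5 1576 in place of 877 higher, and from E16.5 to P5 3410 in place of 1558 and 2424 in place of 1324. At E16.5, 67 Nos1+ cells limit every value.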
